A study of Mus musculus with 8 samples.

Results

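The keratins described here are Krt8 and Krt7, which are type II keratins, and Krt18, Krt19, Krt17, Krt20 and Krt23, which are type I keratins. They were listed by name, with earlier results of these data known, as 7 of the 51 keratin rows among the 27775 gene rows of single-cell tables made from pancreatic tumors of KPC mice. In the medium size tumor (below, the medium tumor) these 7 genes held 99.6% of all keratin UMIs (unique molecular identifiers, each standing for 1 captured mRNA molecule), and in the large size tumor (the large tumor) 96.96%. KPC mice carry LSL-Trp53R172H/+ and Pdx-1-Cre among their alleles, so Cre, made under the Pdx1 promoter in cells of the pancreatic lineage, switches on mutant alleles there and the animals develop pancreatic ductal adenocarcinoma. All mice were untreated, 1 tumor of each size was dissociated, and the labels give no age or sex for the animals. Cells were captured with the 10x Genomics 3′ chemistry, and the 4 technical replicates of each tumor came pooled in 1 table. Each tumor is therefore 1 sample, no test between the tumors or between cells is possible, no p-value is given, and every interval below is a 95% interval that covers counting error only.

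Keratins are the intermediate filament proteins of epithelial cells. A type I chain pairs with a type II chain, the pairs assemble into filaments, and the filaments are anchored at desmosomes between cells and at hemidesmosomes on the basement membrane. Krt8 and Krt18 form the filament of simple epithelia, Krt7 and Krt19 are added in ducts, Krt20 is known from the lining of stomach and intestine and from urothelium, and Krt17 from basal and wounded epithelium. In pancreatic cancer Krt19 and Krt7 are widely used markers of ductal cells, whereas Krt17 is used as a marker of tumors with a basal-like expression program.

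The promoter sequences are shown because, in the medium tumor, the keratins fall into members found in most carcinoma cells and members found in fewer of them. The sequences let the proximal promoters of both kinds be set side by side. The RefSeq promoter table (GRCm38.p6) had a window of 300 bases, 250 before and 50 after the start, for 5 of the 7 genes. Krt17 and Krt19 had no window in it. Each line gives the 120 bases before the start of transcription in that table, 5′ to 3′ on the strand of the gene, and capitals mark the TATA box letters TATAA and, on the other strand, the GC box letters GGGCGG.
Krt8, chr15:102004343-102004462, minus strand: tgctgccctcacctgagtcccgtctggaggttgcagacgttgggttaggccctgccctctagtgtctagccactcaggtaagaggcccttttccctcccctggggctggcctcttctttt
Krt18, chr15:102028096-102028215, plus strand: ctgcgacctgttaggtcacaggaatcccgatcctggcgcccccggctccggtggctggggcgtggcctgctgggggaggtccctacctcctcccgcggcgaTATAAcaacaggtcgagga
Krt7, chr15:101412283-101412402, plus strand: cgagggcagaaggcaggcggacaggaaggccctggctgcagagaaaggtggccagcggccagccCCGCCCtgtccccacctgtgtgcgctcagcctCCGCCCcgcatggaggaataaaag
Krt20, chr11:99438154-99438273, minus strand: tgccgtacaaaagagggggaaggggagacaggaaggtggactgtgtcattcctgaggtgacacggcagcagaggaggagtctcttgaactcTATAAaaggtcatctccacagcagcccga
Krt23, chr11:99493121-99493240, minus strand: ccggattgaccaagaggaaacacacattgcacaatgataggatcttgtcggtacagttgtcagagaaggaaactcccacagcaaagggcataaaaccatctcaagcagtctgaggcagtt

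Both strands of the 300-base windows were searched for the TATA box letters TATAA, the GC box letters GGGCGG and the letters of a CACCC box, which were found in 24.9%, 35.7% and 57.5% of the 32851 windows of the table. The first T of TATAA lay 19 bases before the start in Krt18 and 29 bases before it in Krt20. In Krt8 a TATAA spanned the start itself, overlapping its own reverse match, and in Krt7 GGGCGG was present 4 times. None of the 3 was found in the window of Krt23. A match is a description of these letters and not of a bound site.

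The submitters' processing notes name the build mm10, which is GRCm38. In the GENCODE M21 annotation of that build, the type II genes Krt7 (15:101411043-101430313, plus strand) and Krt8 (15:101996698-102004482, minus strand) lie on chromosome 15 together with Krt18 (15:102028180-102032027, plus strand). Krt18 is the only type I gene on that chromosome among the 5, and it lies head to head with Krt8, the gene bodies being 23.7 kb apart. The other type I genes lie on chromosome 11, with Krt20 at 11:99428403-99438150, Krt23 at 11:99477974-99493137, Krt19 at 11:100140810-100148665 and Krt17 at 11:100256217-100261029, all on the minus strand. The starts in this annotation differ from those of the RefSeq table, and the printed windows of Krt7 and Krt8 lie inside these gene bodies, as do parts of those of Krt18 and Krt23. A processed pseudogene, Krt8-ps, had no row in the tables, so reads shared with it cannot be told apart from Krt8. A non-coding gene antisense to the start of Krt8, Gm36026, had no row either.

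Depth differed widely, with 20301669 UMIs over 2812 cells (median 5456.5 per cell) in the medium tumor but 2239012 UMIs over 1533 cells (median 1037) in the large one, and 5 barcodes occurred in both tables. The 13 mitochondrial protein genes were listed at 0 UMIs in both tables, so RNA quality could not be read from them. Cells were clustered in each tumor with all keratins left out of the genes that defined the clusters, and clusters were named from 11 epithelial markers, among them Epcam and Cdh1, and from markers of other cell types, none of them a keratin. In the medium tumor 2094 cells in 7 clusters were epithelial-like, 238 cells macrophage-like, 74 mesothelial-like, 67 stromal-like and 38 endothelial-like, and 2 clusters of 232 and 69 cells were left unnamed. In the large tumor 930 cells in 6 clusters were epithelial-like, 253 macrophage-like and 50 stromal-like, and 2 clusters of 272 and 28 cells were unnamed. In that tumor epithelial-like clusters 4, led by Papss2, Guca2b and Fabp1, and 8, a goblet-like cluster led by Zg16, Tff3 and Fcgbp, also held 7 and 6 of 9 enterocyte markers. The tissue label of pancreatic carcinoma does not cover such cells, and whether they were tumor cells or intestine taken with the tumor was not tested, so results of the large tumor are given with and without these gut-marker clusters. Cluster 7, which was kept, had 3653 CPM of the enterocyte list and 2152 CPM of the goblet list, while clusters 3, 5 and 6 had at most 329.8 and 121 CPM.

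Over all cells of the medium tumor Krt18 had 78849 UMIs, Krt8 58075, Krt19 32029 and Krt7 26282. The other members were far lower, with 1704 UMIs of Krt23, 407 of Krt20 and 237 of Krt17. The large tumor had 2204 UMIs of Krt8, 1970 of Krt18, 808 of Krt19 and 506 of Krt7, and then 230 of Krt20, 187 of Krt23 and 2 of Krt17. Each mRNA molecule is counted once at its 3′ end, whatever its length, so transcript length does not enter these sums, but capture can differ between genes and the order is one of counts. Of the 44 other keratin rows the highest was Krt10, a keratin of suprabasal epidermis, with 393 UMIs in the medium tumor and 105 in the large. Krt14, Krt79, Krt15 and Krt78 followed in the medium tumor with 49 to 138 UMIs. A count of 0 over a whole tumor, taken as up to 3 UMIs, leaves room for up to 0.148 CPM, the count of a gene scaled to 1e6 UMIs, in the medium tumor and 1.34 CPM in the large.

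The first comparison set epithelial-like cells against macrophage-like cells, a cell type not known for keratin filaments, whose keratin UMIs are used here as the background level. Whether those UMIs came from free RNA, doublets or material taken up by the cells was not tested. A gene was counted as higher or lower where the ratio was at least 2-fold and its interval left out 1, and the share of genes counted was taken over genes with at least 50 UMIs in the groups compared. Of the 7 keratins, 6 were higher in epithelial-like cells of the medium tumor, against 24.4% of the 10644 genes tested. In the large tumor the same 6 were higher, against 23.4% of 3949 genes, and Krt17 was under the minimum. In the medium tumor Krt8 was at 3302 CPM in epithelial-like and 155 CPM in macrophage-like cells, a ratio of 21.3 (18.0 to 25.2). Krt18 was at 4402 against 230 CPM (ratio 19.1, 16.7 to 22.0), and Krt19 at 1894 against 114 CPM (ratio 16.6, 13.7 to 20.3). Krt7 and Krt23 had ratios of 18.2 (14.6 to 23.1) and 18.1 (7.75 to 55.9), so Krt23, at 98.4 CPM, stood at much the same ratio to the macrophage-like cells as Krt7, at 1545 CPM. Krt20, with 2 UMIs in macrophage-like cells, had a ratio of 11.1 (3.06 to 92.1). Krt17 was the exception, at 13.7 against 6.52 CPM, a ratio of 2.10 whose interval of 0.949 to 5.78 included 1. The size of these ratios depended on which cells were called macrophage-like. For Krt8, Krt18, Krt19 and Krt7 they were 4.90 to 5.68 at a coarser clustering (resolution 0.4, 305 macrophage-like cells) and 3.14 to 7.25 when each cell was classed on its own markers (340 cells). Krt17 was then at 2.87 and 11.1 and counted as higher.

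In the large tumor the ratios were 21.7 (12.1 to 43.5) for Krt8, 27.2 (13.2 to 67.8) for Krt18 and 19.3 (8.23 to 59.6) for Krt19. Krt20 was at 144 against 15.3 CPM, a ratio of 9.41 (3.18 to 46.0). Krt7 and Krt23 had no UMI in macrophage-like cells, and against the limit of 3 UMIs they were at least 19.7-fold and at least 5.47-fold higher in epithelial-like cells, the lower ends of the exact intervals being 16.0 and 4.38. For Krt17 the 2 UMIs of the large tumor allowed no comparison. With each cell classed on its own markers Krt8 was at 5.88 and Krt18 at 7.75, and without the 5% of cells with the highest doublet scores Krt18 was at 43.1 and Krt20 at 27.4.

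Macrophage-like cells of the medium tumor with a UMI of a keratin were common before depth was equalised, with Krt18 in 39.1% and Krt8 in 34.0% of them against 99.8% and 99.2% of epithelial-like cells, at median depths of 3516 and 5930 UMIs. With every cell thinned to 2500 UMIs, Krt18 was found in 29.8% of macrophage-like and 99.4% of epithelial-like cells, Krt8 in 23.1% and 97.8%, Krt19 in 20.6% and 88.2%, and Krt7 in 13.4% and 84.9%. A share near that of the macrophage-like cells is read as background throughout. The keratin UMIs in macrophage-like cells were split between genes much as in epithelial-like cells, with 38.5% and 39.0% from Krt18, 19.1% and 16.8% from Krt19 and 14.2% and 13.7% from Krt7.

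The other non-epithelial clusters of the medium tumor stood between these. In mesothelial-like cells, whose normal counterparts line the body cavities and contain simple keratins, Krt8 was at 743 CPM, 4.79 times the macrophage-like level (3.90 to 5.89). The cluster held all 6 mesothelial markers and also 4 of 10 stromal markers, and Dcn, a fibroblast gene, led it. Krt18, Krt7 and Krt19 had ratios of 4.63, 4.43 and 4.95 there, and the 4 keratins that reached the minimum of UMIs were all counted as higher, against 13.8% of the 3216 genes tested. Krt18 made 38.4%, Krt19 20.4% and Krt7 13.5% of the keratin UMIs of these cells, again close to the split in epithelial-like cells. The list of gastric genes, which are high in the carcinoma cells, moved with them, at 3305 CPM in mesothelial-like and 305 CPM in macrophage-like cells, with 5 of 5 genes tested counted as higher, and the part of carcinoma RNA in the keratin values was not tested. In stromal-like cells Krt8 and Krt18 were at 2.00 and 1.92 times the macrophage-like level, and Krt7 and Krt19 at 1.07 and 1.14 times. The endothelial-like cluster of 38 cells, with Krt8 at 1036 CPM, also held 4 of the 11 epithelial markers, and the part of epithelial cells or their RNA in that value was not tested.

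**Figure D1:**
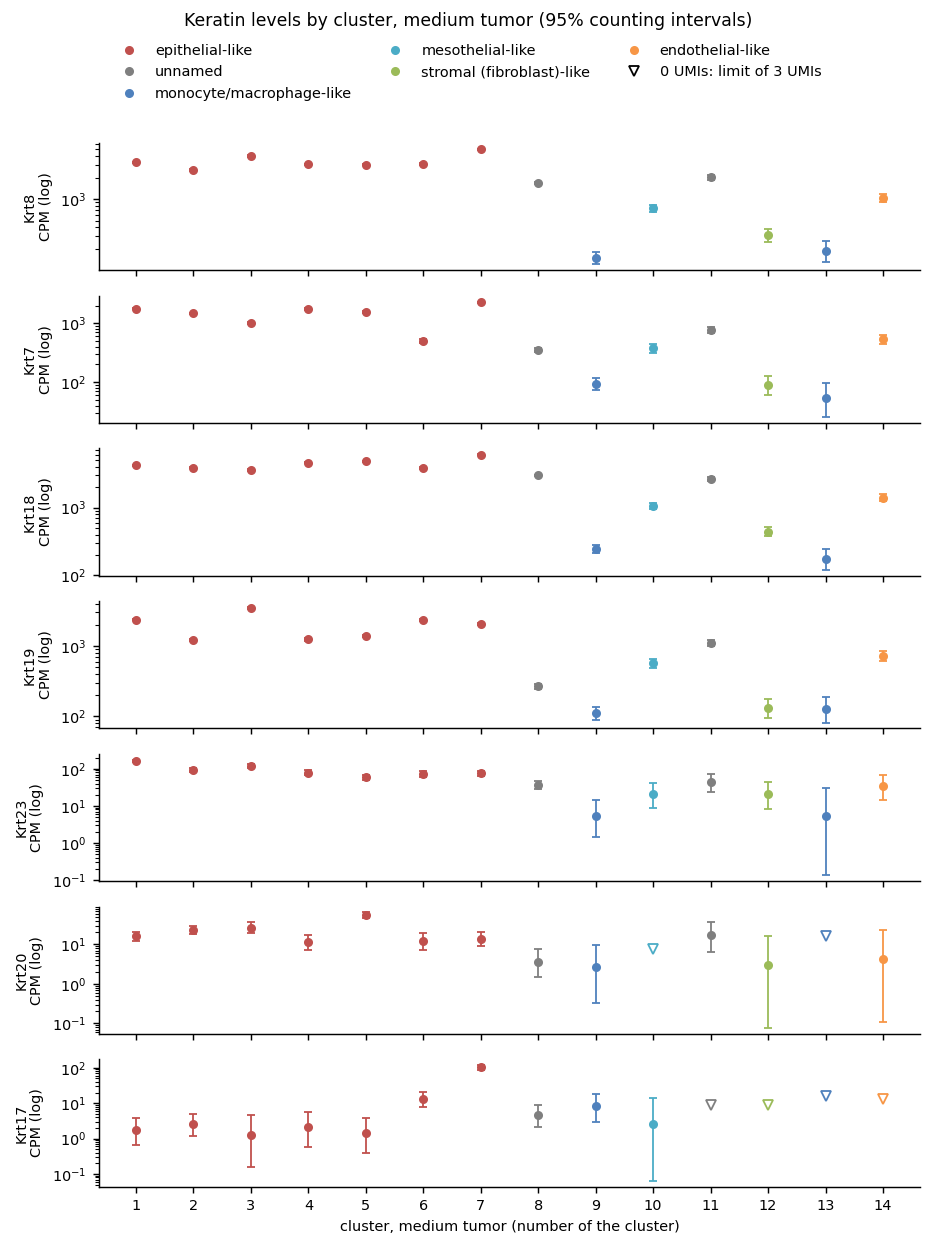
Level of each keratin (CPM, log axis) in each cluster of the medium tumor, with 95% Poisson intervals as bars. Krt8, Krt18, Krt19 and Krt7 lie high in the epithelial-like clusters 1 to 7 and low in macrophage-like clusters 9 and 13, whereas Krt17 stands at 102 CPM in cluster 7 and at 13.0 CPM or less in every other cluster.

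Among the 7 epithelial-like clusters of the medium tumor, 3 of the 7 keratins differed by more than 4-fold between the highest and the lowest cluster, against 24.9% of the 10397 genes tested. These were Krt17 (80.9-fold), Krt20 (4.85-fold) and Krt7 (4.56-fold). Krt8 spanned 1.94-fold and Krt18 1.66-fold, the narrowest of the 7, with Krt23 at 2.77-fold and Krt19 at 2.88-fold between them. The count was 1 at resolution 0.4 and 5 at resolution 1.2, where Krt20 spanned 51.4-fold. The clusters are described by their leading genes, from which keratins were left out.

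Krt8, the main type II chain, was highest in cluster 7, led by Cldn4, Slco2a1 and Ctla2a, at 4979.5 CPM (4875 to 5086). It was next highest in cluster 3, led by Tff3, Ly6d and Reg1, at 4033 CPM and in the gastrokine-led cluster 1 at 3282 CPM. Clusters 6, 4 and 5 followed at 3076, 3059.6 and 3048 CPM, with overlapping intervals, and the mitotic cluster 2 was lowest at 2571 CPM. Its type I partner Krt18 was likewise highest in cluster 7, at 6019 CPM, but cluster 3, the second cluster for Krt8, was the lowest for Krt18 at 3620.0 CPM. The UMIs of Krt8 per UMI of Krt18 were 0.750 (0.742 to 0.759) over all epithelial-like cells and 1.11 (1.07 to 1.15) in cluster 3, above the 0.627 to 0.827 of the other 6 clusters.

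Krt7, the ductal type II chain, was at 2272 CPM in cluster 7, between 1477 and 1781 CPM in clusters 1, 2, 4 and 5, and at 1006 CPM in cluster 3. It was lowest, at 498 CPM, in cluster 6, led by Dmbt1, Lcn2 and Mmp7. Krt19, the ductal type I chain, had another order, with 3493 CPM in cluster 3, 2372 in cluster 1, 2331 in cluster 6 and 2032 in cluster 7. Clusters 5, 4 and 2 held 1374, 1242 and 1214 CPM of Krt19. Cluster 6 was thus the lowest of the 7 clusters for Krt7 and the third highest for Krt19.

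Krt17 was close to a marker of 1 cluster. Cluster 7 held 178 of the 237 UMIs of Krt17 in the tumor (75.1%), at 102 CPM (87.9 to 119), while cluster 6 had 13.0 CPM and the other 5 epithelial-like clusters 1.27 to 2.59 CPM. Within cluster 7 a UMI of Krt17 was seen in 62 of 233 cells (26.6%), the 5 cells with the most held 20.2% of the UMIs and no cell had more than 9. Macrophage-like cluster 9, with 6 UMIs, was at 8.20 CPM, above the values of those 5 clusters. Cluster 7 was also the highest for Krt8, Krt18 and Krt7. It had 3825 CPM of Fn1, which encodes the matrix protein fibronectin, the most among the 7 epithelial-like clusters. Vim, which encodes the mesenchymal filament protein vimentin, was at 247 CPM there. Tnc, a matrix gene among the genes listed for a basal state and the leading genes of the cluster, was at 115 CPM in cluster 7 and at 0 to 3.798 CPM in the other 6 epithelial-like clusters. Ly6d, of the same list, was at 11997 CPM in cluster 3, among the leading genes there, and Trp63 had 1 UMI in all 14 clusters.

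Krt20 was highest in cluster 5, led by Yap1, Dcun1d5 and Birc2, at 55.0 CPM (46.6 to 64.5), where 88 of 259 cells had a UMI and 37.1% of the Krt20 UMIs of the tumor lay. Cluster 3 followed at 26.6 CPM and cluster 2 at 23.1 CPM, and the lowest was cluster 4 at 11.3 CPM. Krt23 was highest in the gastrokine-led cluster 1 at 161 CPM, where a UMI was found in 247 of 511 cells, and lowest in cluster 5 at 58.3 CPM. The low members thus each had a leading cluster of their own, Krt17 in 7, Krt20 in 5 and Krt23 in 1.

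Over all 14 clusters of the medium tumor the levels of Krt8 and Krt18, as log2(CPM + 10), had a Pearson r of 0.986, and those of Krt17 with the other members 0.057 to 0.312. These are descriptions over clusters of 1 library, which share its depth and its free RNA. Among 2795 genes with at least 1000 UMIs, the patterns most like that of Krt8 were those of Pafah1b3 (r = 0.968), Dsp (0.966), which encodes the desmosomal plakin desmoplakin, and Ppap2c (0.961). Krt18 was most like Pafah1b3 (0.970), Ppap2c (0.968) and Baiap2l1 (0.965), and Krt7 most like Mal2 (0.929), Trabd (0.928) and Ppap2c (0.927). Krt19 was most like Krtcap3 (0.969), Serpinb5 (0.961) and Prr15l (0.956), and Krt23 most like Cib1 (0.981), Pdcd6 (0.967) and Mrps6 (0.964). No gene came as close to Krt17 or Krt20, for which the highest r were 0.797 (Fam107b) and 0.872 (Rpl5). Krt17 and Krt20 had 237 and 407 UMIs, under the 1000 asked of the other genes. The part of counting error in their lower r was not tested.

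Over 2094 single epithelial-like cells, thinned to 2500 UMIs, the Spearman correlation was 0.489 for Krt8 with Krt18. It was 0.213 to 0.455 for the other pairs among Krt7, Krt8, Krt18 and Krt19. These values pool the cells of all epithelial-like clusters and so include differences between clusters. Within clusters 1, 3, 5 and 6 Krt8 correlated more with Krt19 than with Krt18 (0.552 against 0.398 in cluster 3). Within clusters 2, 4 and 7 it correlated less with Krt19 than with Krt18 (0.404 against 0.651 in cluster 4). A type II and a type I member were both seen in 98.9% of epithelial-like cells (2070 of 2094) and in 18.9% of macrophage-like cells (45 of 238). All 4 of Krt7, Krt8, Krt18 and Krt19 were seen in 75.4% of epithelial-like cells, 89.3% of the cells of cluster 7 and 1.68% of macrophage-like cells. In the large tumor cells were thinned to 500 UMIs. Both types were seen there in 28.7% of epithelial-like (267 of 930) and 0.395% of macrophage-like cells (1 of 253). All 4 were seen in 1.29% of its epithelial-like cells. The depths differ, so these shares are not set against those of the medium tumor.

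Type II members made 43.0% (42.7 to 43.2) of the UMIs of the 7 keratins in epithelial-like cells of the medium tumor, with clusters from 36.2% in cluster 6 to 46.8% in cluster 7. Macrophage-like cells, as background, had 40.1%. In the large tumor the share was 47.3% (45.8 to 48.7), and 46.3% without the gut-marker clusters.

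**Figure D2:**
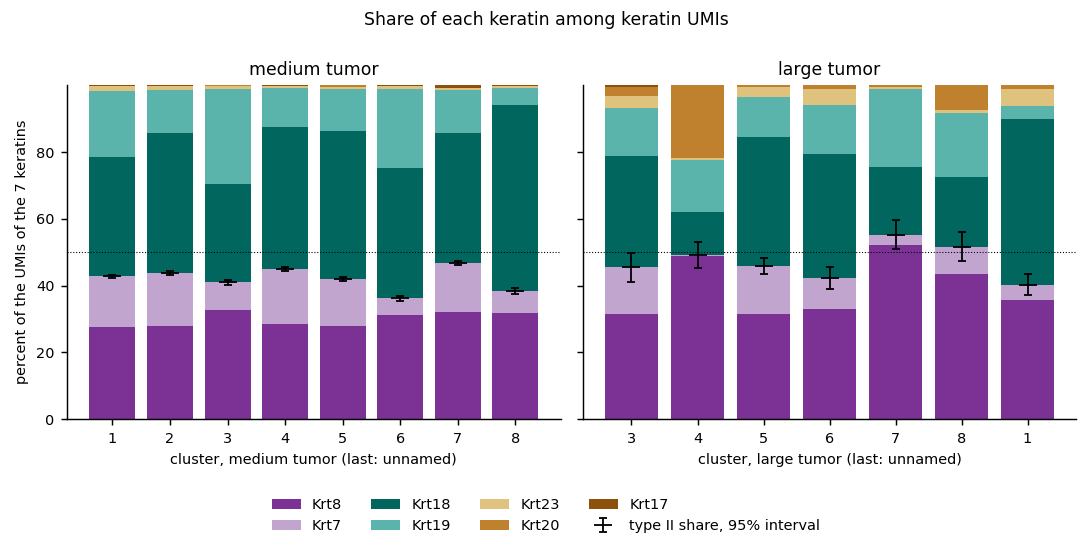
Share (%) of each of the 7 keratins in their summed UMIs, by cluster in each tumor. Krt18 is the largest part of most clusters of the medium tumor, cluster 3 of that tumor has nearly as much Krt19 (28.4%) as Krt18 (29.4%), and in cluster 4 of the large tumor Krt20 makes 21.8%.

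Cluster 8 of the medium tumor, led by Inhba, Bmp2 and Piezo2, could not be named, since it held 1 of the 11 epithelial markers. All 7 keratins had ratios under 1 to the epithelial-like cells, and 5 of the 7 counted as lower, against 11.1% of the 10664 genes tested. Krt19 was at 268 CPM, 0.142 of the epithelial-like level (0.129 to 0.154), and Krt7 at 353 CPM, 0.228 of it (0.211 to 0.246). Krt8, at 1692 CPM, and Krt18, at 2978 CPM, were at 0.512 (0.494 to 0.531) and 0.676 (0.658 to 0.695) of that level. Krt20, Krt17 and Krt23 were at 0.151, 0.342 and 0.381 of it. The value of Krt17 rested on epithelial-like cluster 7, and without that cluster Krt17 was at 1.57 (0.673 to 3.26) and 4 keratins counted as lower. The simple pair was thus reduced less than the ductal pair, and Krt18 made 55.8% and Krt19 5.02% of the keratin UMIs of the cluster. Both chain types were still seen in 89.2% of its cells after thinning, well above the 18.9% of macrophage-like cells, but all 4 of Krt7, Krt8, Krt18 and Krt19 in 22.0% (51 of 232).

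Cluster 8 had 1560.0 CPM of Vim and 1960 CPM of Fn1. Among the partners of keratin filaments, 4 of the 9 desmosome genes tested counted as lower there than in epithelial-like cells, against the same 11.1% of all genes, the lowest being the desmosomal cadherin Dsc2 at 0.170 and the plakophilin Pkp3 at 0.2499. Perp and Pkp1 were at 1.78 and 1.57, which did not count as higher. The hemidesmosome genes Lama3, a laminin chain, and Itgb4, an integrin, counted as lower at 0.241 and 0.440, and Itga6 and Lamb3, at 0.512 and 0.558, did not. Of the 4 plakins, Ppl and Evpl were at 0.245 and 0.227 of the epithelial-like level, Plec at 1.52 and Dst at 2.93 times it. Of the other intermediate filaments Vim was at 2.13 and Nes, which encodes nestin, at 2.55 times it.

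The large tumor also had an unnamed cluster with 1 epithelial marker, cluster 1, led by Ggct, Ramp1 and Ank, with 1687 CPM of Vim. Set against the epithelial-like cells outside the gut-marker clusters, Krt19 was at 0.196 and Krt7 at 0.292 of their level there, and these 2 counted as lower among the 5 keratins over the minimum, against 8.75% of the 3897 genes tested. Krt8 was at 0.753 and Krt18 at 1.05 of it. Krt19 and Krt7 were therefore below Krt8 and Krt18, relative to the epithelial-like cells, in the unnamed cluster of each tumor.

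Carcinoma states were then described across the epithelial-like and unnamed clusters of the medium tumor, 2395 cells in all, ordered by a list of 12 mesenchymal genes that included Vim, Fn1 and Sparc. The 69 cells of cluster 11 were among them, although this cluster, led by Laptm5 and Rac2, held 8 of 11 macrophage markers beside 9 epithelial ones. Between the 479 cells highest and the 479 cells lowest in the list, 3 of the 7 keratins counted as lower in the highest, against 5.85% of the 8672 genes tested, and 1 as higher, against 9.56%. Krt19 was at 1134 CPM in the highest and 2833 CPM in the lowest cells, a ratio of 0.4002 (0.386 to 0.415), and over the 5 equal parts of the order it went from 2833 through 1935, 1640.2 and 1302 to 1134 CPM. With Vim left out of the list the ratio of Krt19 was 0.555, and in the epithelial-like clusters only it was 0.525. Krt19 no longer counted in either case. Krt23 went from 143 to 48.1 CPM (ratio 0.336, 0.282 to 0.398) and Krt20 had a ratio of 0.466 (0.331 to 0.650), which without cluster 11 was 0.525 and no longer counted. For Krt8, Krt7 and Krt18 the ratio of the highest to the lowest cells was 0.867, 0.924 and 1.05, and in between Krt8 went down to 2855 CPM in the middle part from 3648 CPM in the lowest.

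Krt17 was at 43.5 CPM (172 UMIs) in the highest and 1.59 CPM (5 UMIs) in the lowest cells, a ratio of 27.3 (11.5 to 85.3), but at 0.203 (0.113 to 0.349) when cells were ordered by Vim alone and at 73.8 (20.1 to 614) when they were ordered by Fn1 alone. Of the cells highest in the list 28.2% were from cluster 7, where Fn1 is high and Vim low, and 30.7% from cluster 8, where both are high. Krt20 turned too, from 0.466 to 1.74 (1.24 to 2.47) by Vim alone. Krt19 counted as lower by Vim (0.432) but not by Fn1 (0.687), and Krt23 by Fn1 (0.475) but not by Vim (0.578), all 4 ratios being under 1. Without cluster 7 Krt17 was at 4.03 and Krt20 at 0.978, and Krt20 was at 0.925 when 3 equal parts were made. The orders by a single gene and the orders without a cluster were chosen after the data had been seen. Without cluster 8 the count of lower keratins was 1, that of Krt23, with Krt19 at 0.521 and Krt20 at 1.03.

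**Figure D3:**
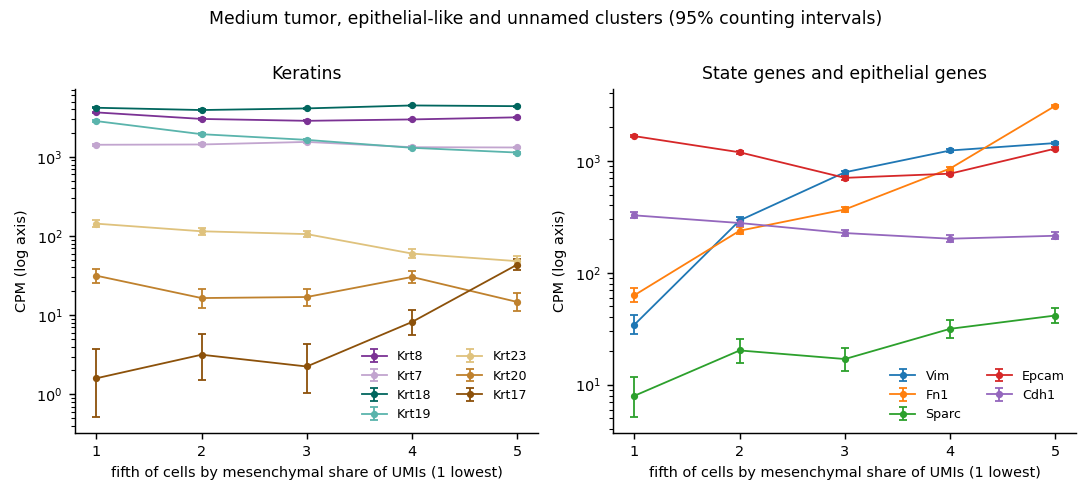
Level of each keratin (CPM, log axis) in 5 equal parts of the cells of the epithelial-like and unnamed clusters of the medium tumor, ordered from lowest to highest in the mesenchymal list, with 95% Poisson intervals. Krt19 and Krt23 are lower at the high end, the ends of the order differ little for Krt8 and Krt18, and Krt17 goes from 1.59 to 43.5 CPM, a direction that turns when cells are ordered by Vim alone.

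For the cell cycle, 387 epithelial-like cells with at least 3 UMIs of 12 mitotic genes were set against 1339 cells with none. Of the 7 keratins 1 counted as lower in the mitotic cells, against 6.99% of the 9959 genes tested, and 0 as higher, against 4.2%. That 1 was Krt17, with 19 UMIs in mitotic and 161 UMIs in other cells (ratio 0.209, 0.123 to 0.338), and without cluster 7 its ratio was 0.926. Krt19 was at 1389 against 2210 CPM, a ratio of 0.628 (0.611 to 0.647), and Krt8, Krt18 and Krt7 were at 0.759, 0.887 and 0.926. Krt23 and Krt20 were at 1.02 and 0.959. Mitotic cells were deeper, with a median of 10039 against 5025 UMIs, and 71.8% of them lay in cluster 2.

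In the large tumor the goblet-like cluster 8 (54 cells) was highest for Krt8 at 4656 CPM (4073 to 5300), and also for Krt18 at 2237, Krt19 at 2033 and Krt7 at 854 CPM. Outside it Krt8 was at 2064 CPM in cluster 7, led by Lgals2, Dmbt1 and Tspan1, at 1708 CPM in the enterocyte-marker cluster 4, and at 733 to 1062 CPM in clusters 3, 5 and 6. Among the epithelial-like clusters Krt18 was at 1198 CPM in the gastrokine-led cluster 6 and lowest, at 451 CPM, in cluster 4. The UMIs of Krt8 per UMI of Krt18 thus reached 3.79 (2.97 to 4.87) in cluster 4 and 2.59 in cluster 7, against 1.01 over epithelial-like cells without the gut-marker clusters. Krt7 was at 15.9 CPM in cluster 4 (3 UMIs) and between 117 and 379 CPM in clusters 3, 5, 6 and 7.

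Krt20 marked the gut-marker clusters. It was at 773 CPM (547 to 1060) in cluster 8 and 764 CPM (644 to 899) in cluster 4, which do not differ beyond their intervals, and at 62.2 CPM or less in every other cluster. Cluster 4 held 62.6% of the Krt20 UMIs of the tumor, with a UMI in 93 of 204 cells, and cluster 8 another 16.5%. Set against the other epithelial-like cells, the gut-marker clusters had 766 against 26.3 CPM of Krt20, a ratio of 29.2 (20.05 to 43.6). With Krt8 at 2.30 (2.08 to 2.55) and Krt19 at 2.00 (1.70 to 2.36), 3 of the 7 keratins counted as higher, against 15.7% of the 3582 genes tested, and Krt23 at 0.460 (0.215 to 0.877) as the 1 lower, against 31%. Krt17 was under the minimum. Krt7 and Krt18 were at 0.586 and 0.820.

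Krt23 was highest in the unnamed cluster 10, led by Upk3a and Fabp4, at 379 CPM (202 to 648) from 13 UMIs, and next in cluster 6 at 153 CPM. That cluster of 28 cells held 8 of 10 endothelial and 3 epithelial markers. In it Krt15, a keratin of basal epithelium, was at 437 CPM, from 15 of the 18 Krt15 UMIs of the tumor in 9 cells. Both UMIs of Krt17 lay in cluster 3, at 8.89 CPM.

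**Figure D4:**
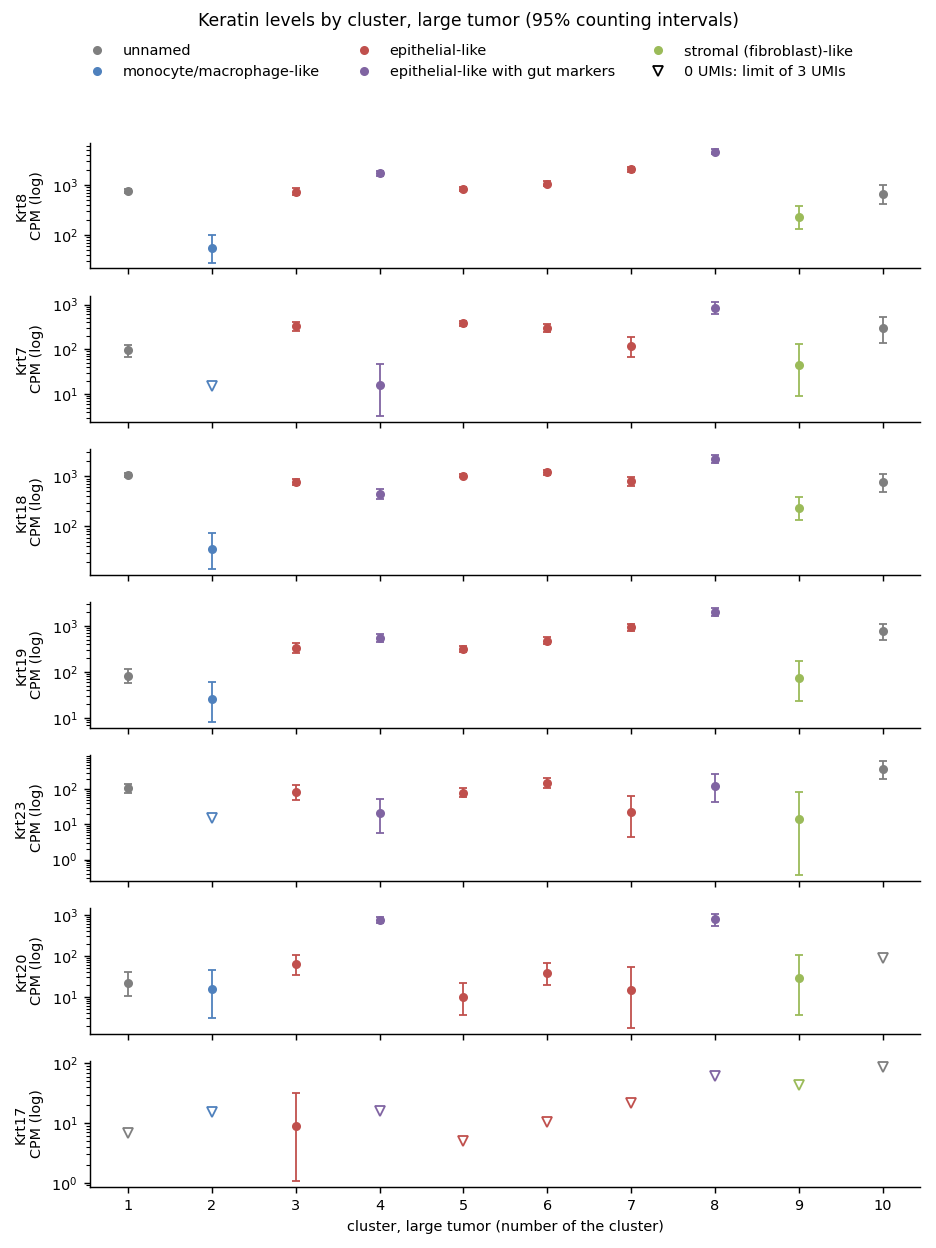
Level of each keratin (CPM, log axis) in each cluster of the large tumor, with 95% Poisson intervals and limits where no UMI was counted. Krt20 stands at 764 and 773 CPM in the gut-marker clusters 4 and 8 and at 62.2 CPM or less elsewhere, and Krt7 is at 15.9 CPM in cluster 4.

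Between the tumors, all epithelial-like cells of the large tumor were set against those of the medium tumor. For this comparison the minimum was 200 UMIs, which all 7 keratins reached in the 2 tumors together. Of the 7 keratins 5 counted as lower in the large tumor, against 18.6% of the 7190 genes tested, and 1 as higher, against 5.81%. Krt8 was at 1215 against 3302 CPM, a ratio of 0.368 (0.351 to 0.386), and Krt18 at 971 against 4402 CPM, a ratio of 0.221 (0.209 to 0.232). Krt7 was at 0.195 (0.178 to 0.214) and Krt19 at 0.260 (0.241 to 0.279). Krt17 was at 0.0978 (0.0118 to 0.358), from 2 UMIs in the large tumor. Krt23 was at 83.6 against 98.4 CPM, a ratio of 0.850 whose interval of 0.703 to 1.02 included 1. Krt20 alone was higher, at 144 against 24.1 CPM, a ratio of 5.96 (5.02 to 7.06), or 10.9 with each cell weighing the same.

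Without the gut-marker clusters Krt20 had a ratio of 1.09 (0.738 to 1.55), and 5 of the 7 keratins were lower, against 18.9% of the 7141 genes tested. Krt8 was then at 0.305, Krt18 at 0.227, Krt19 at 0.224, Krt7 at 0.209 and Krt23 at 0.930. Without cluster 7 of the large tumor as well, which was tried after the data had been seen, Krt8 was at 0.266, Krt18 at 0.233, Krt19 at 0.191, Krt7 at 0.225 and Krt20 at 1.15. Krt10, which is no member, was at 2.46 (1.83 to 3.25). With the gut-marker clusters kept and cluster 7 of the medium tumor left out, Krt17 was at 0.449 with an interval that included 1. Size, animal, library and depth changed together between these 2 samples and cannot be told apart.

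Krt7, Krt8, Krt18 and Krt19 were also lower where single clusters of the tumors were set against each other. The pairs were the gastrokine-led clusters, the mitotic clusters and the unnamed clusters with 1 epithelial marker, of which the last pair had Ggct alone in common among the 10 leading genes of each. In each of the 3 pairs of clusters these 4 genes counted as lower, among 4 or 5 keratins that reached the minimum. In the gastrokine-led clusters Krt7 was at 0.170, Krt19 at 0.2005, Krt18 at 0.284 and Krt8 at 0.324 of the medium tumor's level, against 20.8% of 2491 genes counted as lower. In the mitotic clusters these 4 were at 0.256 to 0.328, against 17.2% of 2696 genes, and in the unnamed clusters with 1 epithelial marker at 0.267 to 0.448, against 22.1% of 1787 genes. Krt23 was at 0.946 and 0.880 in the gastrokine-led and mitotic clusters and at 2.87 (1.952 to 4.199) in the unnamed ones, where it did not reach the minimum of UMIs. Krt20, under the minimum in each pair, counted as higher in the gastrokine-led and unnamed clusters and as lower in the mitotic ones.

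The ratio of the tumors, without the gut-marker clusters and with 1 UMI added to each sum, also moved with base composition. Over 6925 of the 7141 genes with a known transcript, the median log2 ratio of large to medium tumor went from 0.32 to -0.95 between the lowest and the highest of 10 bins of GC content in the last 500 bases of the transcript. Krt8, Krt18, Krt19 and Krt17 have a GC content of 54.2% to 57.6% there and log2 ratios of -1.71 to -2.53 (the last that of Krt17, from 2 UMIs), below the medians of -0.71 and -0.95 of their bins, in which 6.88% to 15.01% of the genes were lower still. Krt7 has a GC content of 34.8%, and its log2 ratio of -2.25 stood against a median of 0.24, with 0.713% of the 701 genes of its bin lower. Krt20 (0.16) and Krt23 (-0.09) were near the medians of their bins, 0.01 and -0.08. The part of base composition and depth in the differences of the keratins was not tested beyond this.

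Genes of the junctions that hold the filaments were set beside the keratins. Between epithelial-like and macrophage-like cells of the medium tumor, 9 of 9 desmosome genes tested counted as higher, among them Dsp at 17.2 and the membrane protein Perp at 10.6, against the 24.4% of all genes given above. Of the plakins 3 of 4 were higher, led by Ppl at 31.3. Of the hemidesmosome genes, Lama3 at 9.96, Itgb4 at 8.88 and Lamb3 at 6.10 counted as higher and Itga6 at 1.94 did not. Between the tumors, without the gut-marker clusters, 2 of 9 desmosome genes were lower in the large tumor (Pkp1 at 0.420 and Pkp3 at 0.442), as was 1 of 3 plakins (Plec at 0.414), against the 18.9% of all genes. Of the hemidesmosome genes, Lamb3 and Itgb4 counted as lower, at 0.187 and 0.189, and Lama3 and Itga6, at 0.858 and 1.52, did not. Nes was at 0.256 and was the 1 of 4 other intermediate filament genes tested to be lower.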

How the data were processed

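The authors deposited 1 table of UMI counts for each tumor, with genes against cell barcodes, as whole numbers that were not normalized. The submitters' processing notes name Cell Ranger and the build mm10, and the version and the annotation are not given in the sources used here. Both tables list 27775 gene rows, and a gene was taken by its symbol. No column holds a comparison made by the authors.

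Each tumor was clustered on its own with Seurat 5.3.0 in R 4.3.3 (log normalization to 10000, 2000 variable genes with all keratins taken out, 10 principal components, resolution 0.8). A marker counted for a cluster when it was found in at least 10% of the cells and at 25% or more of the level of the highest cluster. A cluster was named from at least 3 markers, after the class with the largest share of its list, and left unnamed where another class had 60% or more of that share. Epithelial, enterocyte and goblet lists were not set against each other in this, and cluster 10 of the large tumor, which the rule would call endothelial-like, was left unnamed because Upk3a and Ly6d were among its leading genes. Scrublet (scanpy 1.11.5) called 0 cells of the medium tumor and 9 cells (0.587%) of the large tumor as doublets, and none was removed.

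UMIs were summed over the cells of a group with Python 3.11.15 (numpy 2.4.6, scipy 1.17.1, pandas 2.3.3) and given as CPM with exact Poisson intervals. Shares of cells have exact binomial (Clopper-Pearson) intervals and ratios exact conditional binomial intervals, and cells thinned to 2500 UMIs (medium) were used for shares of cells and correlations. The 2-fold call between the tumors and its interval were tested on simulated sums of UMIs that held counting error only. The other steps were not tested in this way. TMM factors from edgeR 4.0.16, other resolutions, other naming and other orders of the cells were tried as alternatives. Groups came from the tumor size in the labels. The 7 keratins are always named, and other genes are named from lists, as leading genes of a cluster or as the 3 genes of most like pattern. The members and the lists were chosen with earlier results of these data known. Some items of the genotype and of the gene lists are not reported here.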

Additional observations from a re-analysis of the deposited data

Results flagged for a closer look

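In 4 cases a keratin differed in one direction between a pair of clusters of the medium tumor and in the other between the like pair of the large tumor, each tumor being 1 sample, and the difference between the tumors was not tested. Krt7 in the mitotic cluster was at 0.829 (0.799 to 0.861) of its level in the gastrokine-led cluster in the medium tumor and at 1.25 (0.976 to 1.62) in the large tumor. Krt20 in the same pair was at 1.42 (0.993 to 2.04) in the medium and 0.259 (0.0786 to 0.763) in the large tumor, there from 6 and 11 UMIs, which is under the minimum of 50. In the unnamed cluster with 1 epithelial marker, Krt18 was at 0.676 (0.658 to 0.695) of the epithelial-like level in the medium tumor and 1.05 (0.944 to 1.17) of the level of epithelial-like cells without the gut-marker clusters in the large tumor, and Krt23 at 0.381 (0.296 to 0.482) and 1.18 (0.822 to 1.66). The interval of 1 of the 2 ratios included 1 in each case.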

How the results depend on the processing

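No paired analysis was possible because the technical replicates of each tumor are pooled in 1 table, so no replicate could be left out or matched. Of 72 values of the 9 counts and shares computed under alternatives, 64 stayed close to the reported ones and 8 did not. The count of keratins past 4-fold between epithelial-like clusters, reported as 3, was 1 at resolution 0.4 and 5 at resolution 1.2. The share of type II UMIs in the medium tumor, reported as 43.0%, was 41.8% with each cell weighing the same. The count of keratins lower in the cells highest in mesenchymal genes, reported as 3, was 1 with the list without Vim, 1 by Fn1 alone, 1 in the epithelial-like clusters only and 1 without the unnamed cluster led by Inhba. The mitotic count was 0 without the cluster that holds most Krt17, which had decided it. Of 396 values of single keratins, 368 stayed on their side of the threshold, 17 lost their call, 2 gained one and 4 crossed the 4-fold limit between clusters. In the mesenchymal order 4 values turned, Krt17 to 0.203 and Krt20 to 1.74 by Vim alone, and Krt20 to 1.08 in the epithelial-like clusters only and 1.03 without the Inhba-led cluster. Krt17 in the Inhba-led cluster against epithelial-like cells turned to 1.57 without the cluster that holds most Krt17. The cause was not tested. The alternatives by Vim or Fn1 alone and those that leave out a cluster were chosen after seeing the data, apart from leaving out the gut-marker clusters. With no minimum of UMIs, 6.43% of 17168 genes were higher and 11.6% lower in the large tumor. Counts were low in the large tumor, where Krt17 had 2 UMIs and Krt7 in macrophage-like cells had 0, and the part of depth in this was not tested.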
